A study of Mus musculus with 12 samples.

Results

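The long noncoding RNAs (lncRNAs) Malat1, Neat1, Dleu2, Kcnq1ot1, Meg3 and Gas5 were followed through m6A peak lists of mouse neural stem cells (NSCs). The 6 genes were chosen by name, and a peak was counted for a gene when an lncRNA list gave it that name. Of 3479 gene names with a peak in at least 1 lncRNA list, 4 were among these 6, and of 11628 lncRNA peaks they held 19. N6-methyladenosine (m6A) is a methyl mark on adenosines of RNA, and methylated RNA immunoprecipitation sequencing (MeRIP-seq) reads the RNA fragments that an antibody against the mark pulls down beside the unselected input RNA. The cells were C17.2, an immortalised mouse NSC line. The control group stayed in standard oxygen. The hypoxia/reoxygenation (H/R) group, a culture model of ischemia and reperfusion, was kept for 12 h under 5% oxygen and returned to standard oxygen for 48 h. The 12 samples were 3 immunoprecipitates and 3 inputs of each group, and every group had 3 lncRNA lists, lettered A to C, which are given below in that order. No label named separate cultures, so a p-value covers no more than the spread of these samples, and that spread may be technical.

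Each of these RNAs has a known place in the cell. Malat1 is an abundant RNA of nuclear speckles, where splicing factors gather. Neat1 is the scaffold of paraspeckles, and its long isoform is the one that builds them. Dleu2 is the host of a microRNA pair of the miR-15/16 family and runs opposite to the gene of the ubiquitin ligase Trim13. Meg3 and Kcnq1ot1 are imprinted, Meg3 being expressed from the maternal and Kcnq1ot1 from the paternal chromosome. Gas5 carries small nucleolar RNAs (snoRNAs) in its introns, and its spliced RNA is exported and degraded with translation.

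The lists differed in length and in scale, which touches every value that follows. The lncRNA lists held 1594, 1115 and 1047 peaks for the control libraries and 2649, 1980 and 3243 for the H/R libraries. Their median fold enrichment, the ratio of immunoprecipitate to local background, was 20.9, 34.2 and 29.3 in the control lists and 8.68, 15.5 and 9.38 in the H/R lists. The p score, which is 10 times the -log10 of the p of a peak, started at 50.02 to 50.27 in every list. Only the parts of peaks on annotated exons were kept. An edge at the end of an exon, and the peak length with it, can thus be set by the annotation. The false discovery rate of a peak was high in all lists, with medians of 77.25% to 100%, and 1 lncRNA peak of all lists had a rate of 5% or less. The lists themselves give no read numbers, and the read numbers of the libraries did not enter the values below, which therefore carry no counting intervals. Of 8 NSC markers, 5 had a peak in the mRNA lists, and Nes, Sox2 and Notch1 had one in all 6, whereas Vim, Pax6 and Prom1 had none. Of 4 markers each of neurons, astrocytes, oligodendrocytes and microglia, 1, 1, 1 and 0 had a peak, which is no measure of expression.

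Across the 6 genes, the lists of peaks took 4 forms. Malat1 was called in every list, Neat1 in 5 lists, Dleu2 in the 3 control lists only, and Meg3 in 1 control and 2 H/R lists. Kcnq1ot1 and Gas5 had no peak in any lncRNA list. In number of peaks, the members together had 5, 4 and 3 in the control lists and 3, 1 and 3 in the H/R lists, although the H/R lists were longer. Of the 3479 gene names with a peak in at least 1 lncRNA list, 16.5% (573) had one in all 6, which is the background for Malat1. A further 6.38% (222) were called by the 3 H/R lists and by none of the control lists, and none of the 6 genes was among them. Whether a missing peak meant fewer marks, less of the RNA or fewer reads cannot be told apart in these lists.

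**Figure D1:**
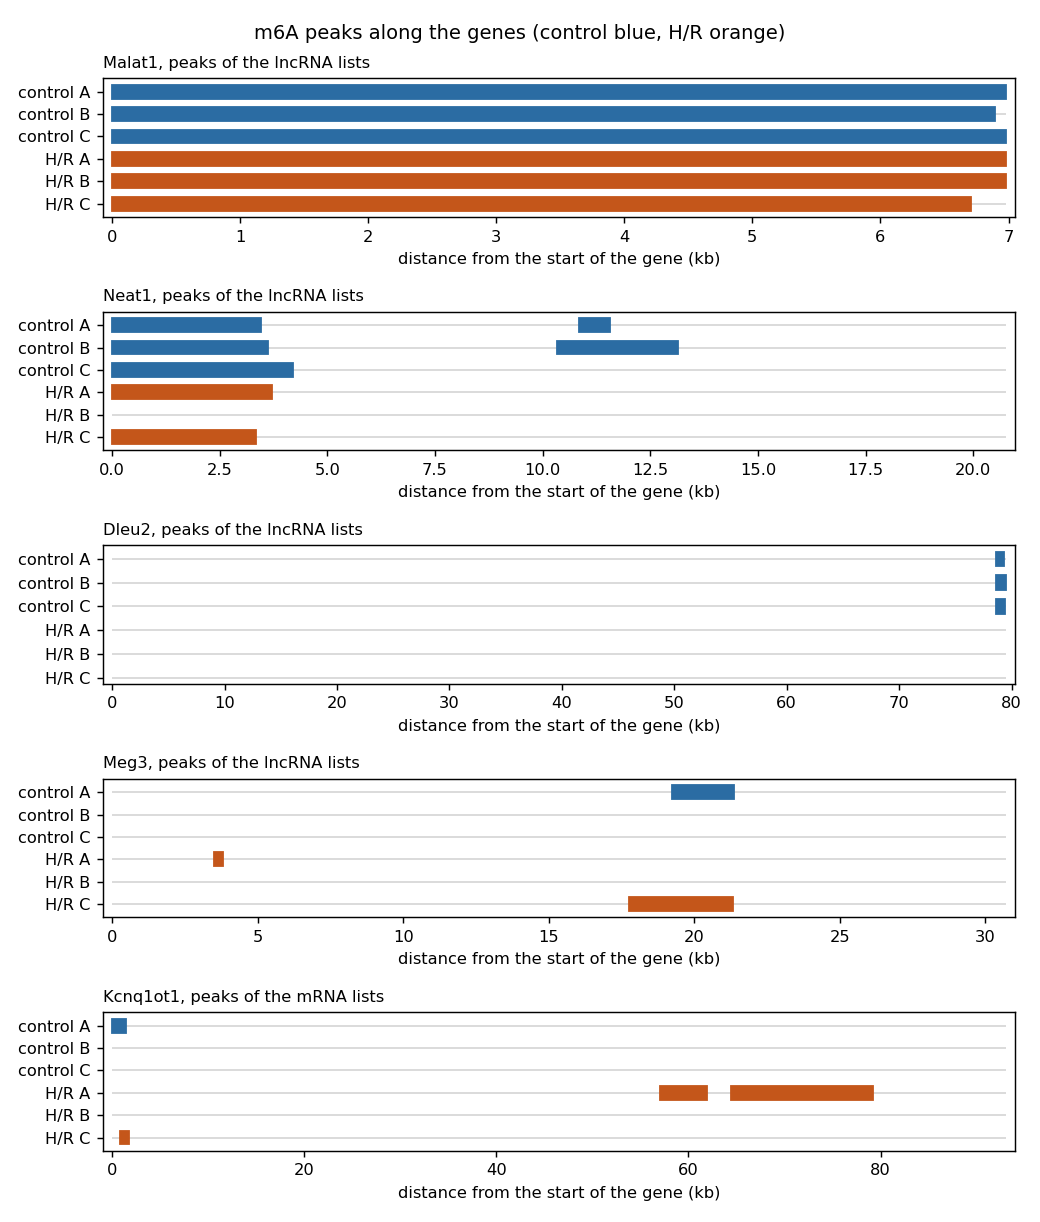
Peaks of Malat1, Neat1, Dleu2 and Meg3 in the lncRNA lists and of Kcnq1ot1 in the mRNA lists, drawn by distance from the start of the gene in kb (x axis) for each library (rows). Bars are called peaks in control (blue) and H/R (orange) libraries, and the grey line is the whole gene. Malat1 was covered nearly end to end in all 6 libraries, the Dleu2 peak lay at the far end of the gene in the 3 control libraries only, and the longest Kcnq1ot1 peak (14777 bases) belonged to H/R A.

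Malat1 carried the most regular signal of the 6. Its gene (ENSMUSG00000092341, mm10 chr19:5795690-5802672, minus strand) is a single exon of 6983 bases, and each list held 1 peak on it. GENCODE places the exons of Gm27694 and Gm37376 within the same bases, and reads from these cannot be told apart in the lists. The peak covered 6983, 6895 and 6983 bases in the control lists and 6983, 6983 and 6705 bases in the H/R lists. The lowest coverage was thus 96.0% of the RNA, and the groups overlapped. The difference in covered bases was -63.3 (exact permutation p = 1, two-sided, 3 against 3, a design that cannot give a p under 0.1). In length the peak stood above 99.9% of the peaks of each list. Its p score was 3100 in all 6 lists, a value that 5.83% to 10.4% of the peaks of a list reached or passed. Few peaks lay above it, with Malat1 at rank 3 in control C and 14 in H/R C, so most of these peaks shared exactly 3100. By this score Malat1 was tied with many others, and the equal values do not compare the groups.

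A peak of this length does not place the mark within Malat1. The consensus of m6A is DRACH, that is, A, G or T, then A or G, then AC, then A, C or T, and it was searched on the transcript strand only. The Malat1 region held 122 such sites, 17.5 per kb, against 20.4 per kb over all 4414 merged lncRNA regions. GGACT, which is one of the sequences that DRACH takes in, occurred 9 times. At this frequency the consensus is common, as 99.4% of the 300-base windows at the centre of the lncRNA regions held a DRACH site and 27.7% held GGACT. The 200 bases of Malat1 densest in DRACH within the stretch that all 6 lists called lay at mm10 chr19:5801321-5801520 and are shown as an example of what the antibody could meet there. Capitals mark the 9 DRACH sites, of which GGACT makes 2.
Malat1: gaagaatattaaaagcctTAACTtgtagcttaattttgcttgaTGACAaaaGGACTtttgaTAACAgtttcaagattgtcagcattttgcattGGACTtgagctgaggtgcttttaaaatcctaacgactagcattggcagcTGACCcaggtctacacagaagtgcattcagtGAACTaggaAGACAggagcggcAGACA

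The Malat1 peak differed between the groups in height. Its fold enrichment was 52.13, 42.88 and 46.81 in the control lists and 17.23, 27.24 and 14.38 in the H/R lists. Every H/R value lay below every control value. The means were 47.3 ± 4.64 and 19.6 ± 6.75 (SD, n = 3 each), a difference of -1.32 on the log2 scale (exact permutation p = 0.1, the smallest this design allows). Most regions moved the same way. Of the 620 lncRNA regions called in all 6 lists, 47.6% (295) had a lower fold enrichment in every H/R list, and their median difference was -0.81. The Malat1 difference was lower than in all but 13.1% of these regions. Divided by the median fold enrichment of its list, a scaling added after seeing the data, the Malat1 peak stood at 2.50, 1.25 and 1.60 in the control lists and at 1.99, 1.76 and 1.53 in the H/R lists. On that scale the groups overlapped, the log2 difference was 0.03 (exact permutation p = 1), and 0.968% (6) of the 620 regions were lower in every H/R list. The scaling moved all regions by the same amount. Their median difference became 0.54, and Malat1 was again lower than all but 13.1% of them, so its place among the regions was as before.

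**Figure D2:**
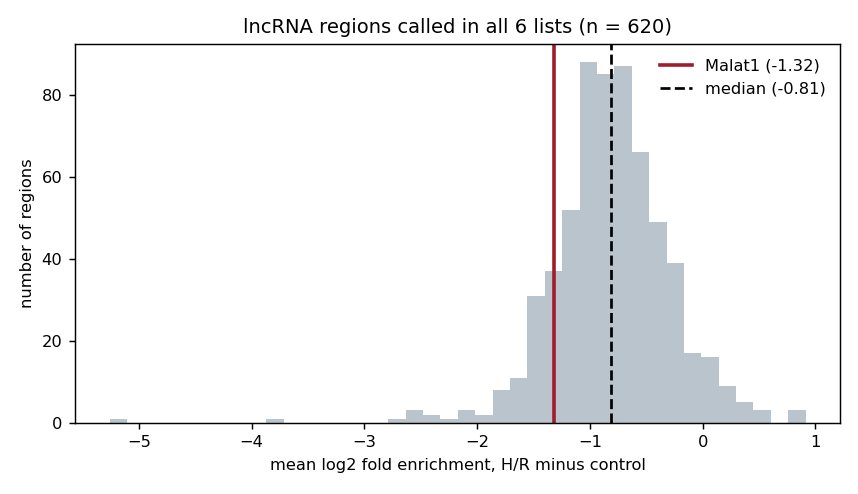
Number of lncRNA regions called in all 6 lists (y axis, n = 620) by the difference in mean log2 fold enrichment, H/R minus control (x axis). The solid line is Malat1 at -1.32 and the dashed line the median of the regions at -0.81.

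Malat1 was also named in every circular RNA list. That entry covered the same 405 bases in all 6 lists (mm10 chr19:5801899-5802303), with the peak identifier and the fold enrichment of the lncRNA entry, so it is the same peak listed again and no measurement of a circle.

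Neat1 differed from Malat1 in covering only stretches of its RNA. Its long isoform (NR_131212, mm10 chr19:5824708-5845478, minus strand, 20771 bases) is a single exon, and the short isoform (NR_003513, 3185 bases) overlaps its start. Peaks fell in 2 regions. The start region (mm10 chr19:5841266-5845478) was called in all 3 control lists and in H/R A and C. Every peak of it reached the annotated start of the RNA, an edge that the cut to exons can set. Peaks of this region covered 3460, 3632 and 4213 bases in the control lists and 3715 and 3347 bases in H/R A and C. These lengths overlapped between the groups. The region takes in 3183 of the 3185 bases of the short isoform, so the lists cannot say which isoform gave it. GENCODE also places exons of Gm27505, Gm27533 and Gm28006 there, and reads from these cannot be told apart either. Its fold enrichment was 30.75, 38.89 and 20.09 in the control lists and 7.90 and 9.55 in H/R A and C. Both H/R values lay below the control values. Of the 620 regions called in all 6 lists, to which this one does not belong, 47.6% (295) were lower in every H/R list. The p scores were 3100, 1414.93 and 139.36 in the control lists and 575.82 and 685.09 in H/R A and C, and by that score the groups overlapped. Over the list median the same peaks stood at 1.47, 1.14 and 0.686 in the control lists and at 0.910 and 1.02 in the H/R lists, and there the groups overlapped. That scaling moved the median log2 difference of the 620 regions from -0.81 to 0.54, so an overlap on it does not show that the groups were equal.

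The start region held 80 DRACH sites and 8 GGACT sites in 4213 bases. Per kb that was 18.99 DRACH and 1.899 GGACT, beside 20.4 and 1.12 over all lncRNA regions and 19.3 and 0.872 in the Neat1 exon outside its regions. The 200 bases densest in DRACH within the stretch shared by the 5 lists lay near the start of the RNA (mm10 chr19:5844941-5845140), with 9 DRACH sites in capitals, 3 of them GGACT.
Neat1 start: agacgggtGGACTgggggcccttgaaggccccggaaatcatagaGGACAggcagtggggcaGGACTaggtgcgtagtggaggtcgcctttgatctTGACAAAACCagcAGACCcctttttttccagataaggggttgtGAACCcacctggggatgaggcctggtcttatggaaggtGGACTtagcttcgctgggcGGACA

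The middle region of Neat1 (mm10 chr19:5832338-5835136) lies on the long isoform alone, 10.3 to 13.1 kb from the start of the RNA. Control A called 725 bases of it at a fold enrichment of 78.6 and control B called 2799 bases at 1504, each with a p score of 3100. Control C and the 3 H/R lists did not call it. The value in control B was above 99.8% of the peaks of that list. Repeats marked in the RefSeq genome sequence made up 24.6% of this region, against 6.43% of the start region and 15.7% of the bases of all lncRNA regions. The part of repeats in the fold enrichment was not tested. The densest 200 bases of the stretch called by both lists (mm10 chr19:5834019-5834218) show a run of AAAC units among the 13 DRACH sites in capitals.
Neat1 middle: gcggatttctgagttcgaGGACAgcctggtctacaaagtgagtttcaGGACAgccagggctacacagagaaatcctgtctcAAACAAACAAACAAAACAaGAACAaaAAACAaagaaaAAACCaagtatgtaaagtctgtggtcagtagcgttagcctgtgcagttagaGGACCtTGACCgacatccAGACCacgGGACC

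Adding both regions, Neat1 peaks covered 4185, 6431 and 4213 bases in the control lists and 3715, 0 and 3347 bases in the H/R lists. Every H/R list covered less than every control list, a difference of -2589 bases between means of 4943 ± 1289 and 2354 ± 2047 (SD, n = 3 each, exact permutation p = 0.1). Of the 3479 gene names with an lncRNA peak, 0.949% (33) had fewer covered bases in every H/R list. The number of Neat1 peaks was 2, 2 and 1 in the control lists and 1, 0 and 1 in the H/R lists, which overlapped (exact permutation p = 0.3). When peaks under a fold enrichment of 10 were left out, no H/R list held a Neat1 peak, and the differences were -4943 bases and -1.67 peaks (exact permutation p = 0.1 for each). This cutoff does not treat the lists alike. It lies above the median fold enrichment of H/R A (8.68) and H/R C (9.38), and below that of H/R B (15.5) and of the control lists (20.9, 34.2 and 29.3). The share of all genes with such a difference at this cutoff was not counted. Without H/R B, the list with no Neat1 peak, the difference in covered bases was -1412.

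**Figure D3:**
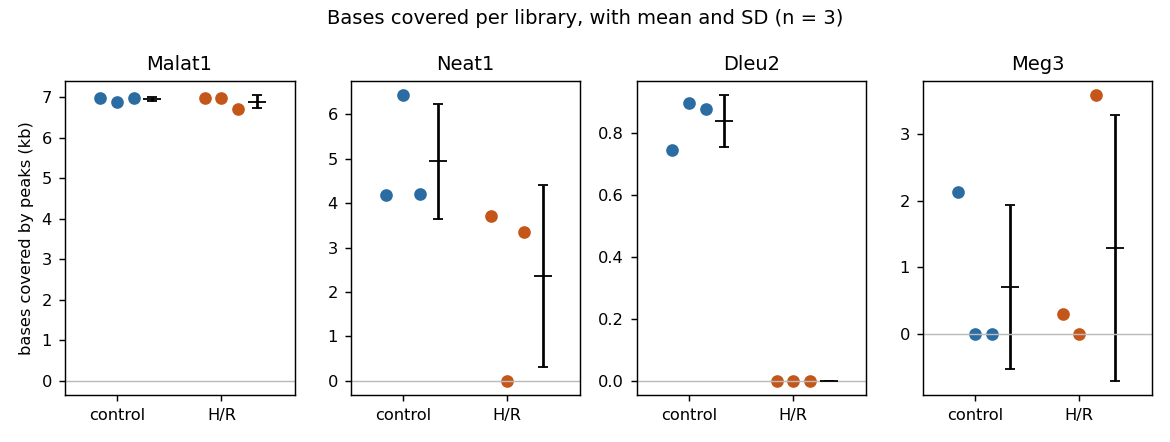
Bases covered by lncRNA peaks in kb (y axis, a scale of its own for each gene) in the control and H/R libraries (x axis). Points are libraries A, B and C from left to right, and the bar beside them is the mean with its SD (n = 3). Malat1 and Meg3 overlapped between groups, and Neat1 and Dleu2 did not.

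Dleu2 was the member with a peak in every control list and in none after H/R. The peak lay in exon 7 of 7 of NR_028264 (mm10 chr14:61602912-61603806, minus strand), 78.6 to 79.5 kb from the start of the gene along the genome. It covered 743, 895 and 876 bases in control A, B and C, or 43.5% to 52.4% of the 1708-base RNA, and 0 bases in the H/R lists. The covered bases averaged 838 ± 82.8 in the control group (SD, n = 3), and the exact permutation p of the difference was 0.1. The fold enrichment was 30.21, 41.72 and 34.85, with p scores of 147.33, 184.36 and 156.78. The 3 values lay close together, but the peak was of middling rank, with 38.0%, 48.0% and 45.2% of the peaks of its list at a lower p score, and its false discovery rate was 100% in each list.

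This pattern was uncommon among the gene names with an lncRNA peak. Calls in each control list and in none after H/R were found for 6 of 3479 genes, or 0.172%, and fewer peaks in every H/R list than in every control list were counted for 0.201% (7). The other 5 were AK020767, Ptpn1, Piga, Gm5537 and Gm16409, named here after their values were seen. Ptpn1 and Piga are names of protein-coding genes whose lncRNA entry overlaps their exons, and both also had a peak in all 6 mRNA lists. With each list reduced to its 1047 peaks of highest p score, the count was 23 of 1639 genes, or 1.40%, with Dleu2 still in the control lists alone.

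No list placed this peak under another name. Within the whole Dleu2 gene, no mRNA or circular RNA list of either group held a peak. The only other lncRNA entries there were those of Gm27010, a gene of 1412 bases on the same strand, with peaks in control A, H/R B and H/R C at fold enrichments of 14.88, 8.21 and 8.58. Dleu2 exon 7 lies within an intron of Trim13 on the opposite strand (4634 bases, between exons ending at 61599895 and starting at 61604530), and no exon of another GENCODE gene overlapped the peak. Trim13 itself had no peak in any mRNA list. Whether the lists kept the strand of the reads is not given in the sources used here, so reads from the Trim13 intron and from Dleu2 cannot be told apart. The hairpin of Mir16-1, which Dleu2 hosts, lay 28.1 kb from the peak. The peak region held 20 DRACH sites, 22.3 per kb, and no GGACT. Its densest 200 bases shared by the 3 control lists were at mm10 chr14:61603226-61603425, with 7 DRACH sites in capitals.
Dleu2: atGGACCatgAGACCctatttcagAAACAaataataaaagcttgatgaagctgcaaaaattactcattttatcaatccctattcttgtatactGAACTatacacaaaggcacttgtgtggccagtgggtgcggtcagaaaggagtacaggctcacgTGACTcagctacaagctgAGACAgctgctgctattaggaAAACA

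Meg3 was called thinly and at shifting places. Control A held a peak of 2127 bases at a fold enrichment of 14.53, and H/R C one of 3575 bases at 6.64, both in exon 5 of 5 of NR_003633 (mm10 chr12, plus strand) and sharing mm10 chr12:109560226-109562342. H/R A held a peak of 298 bases at 5.14, upstream of that transcript on the isoform uc007pap.2 (mm10 chr12:109544519-109544816), where GENCODE also places the small RNA gene Mir1906-1. Control B, control C and H/R B held none. All 3 values lay below the median fold enrichment of their own list, at 0.697, 0.708 and 0.592 of it. The covered bases were 2127, 0 and 0 in the control lists and 298, 0 and 3575 in the H/R lists, which overlapped (difference 582 bases, exact permutation p = 0.7). A minimum fold enrichment of 10, or a p score of at least 100, left the control A peak alone, and the difference then changed sign, to -709 bases. The hairpin of Mir770, a microRNA of the Meg3 locus, lay 1.34 kb from the exon 5 region. The shared stretch of control A and H/R C is shown by its densest 200 bases (mm10 chr12:109561037-109561236), with 10 DRACH sites in capitals.
Meg3: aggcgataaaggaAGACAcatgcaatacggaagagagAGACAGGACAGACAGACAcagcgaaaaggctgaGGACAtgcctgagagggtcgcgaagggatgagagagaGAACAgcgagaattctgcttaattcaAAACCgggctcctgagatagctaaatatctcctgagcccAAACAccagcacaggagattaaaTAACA

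**Figure D4:**
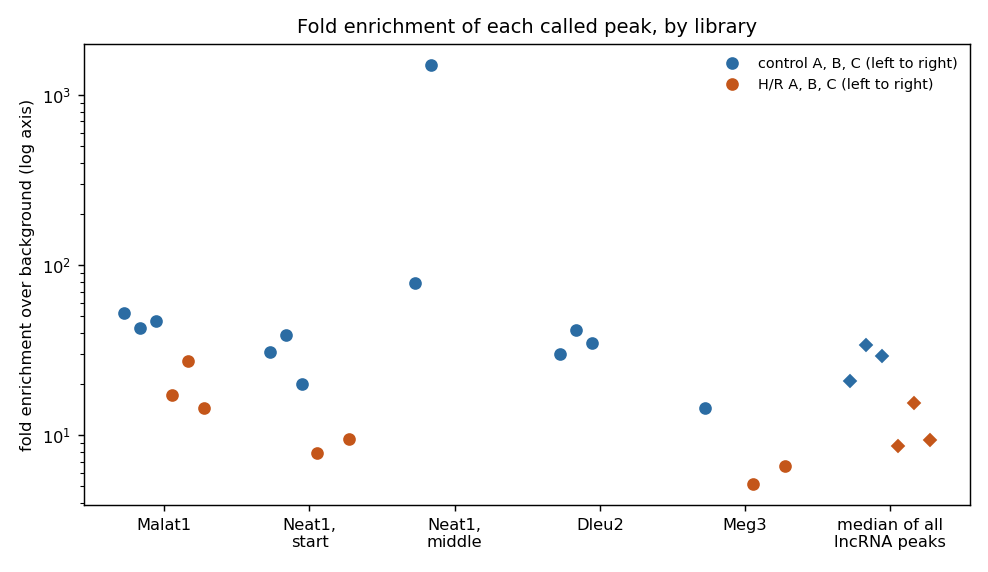
Fold enrichment of each called peak (y axis, log axis) for Malat1, the start and middle regions of Neat1, Dleu2 and Meg3 (x axis), in control (blue) and H/R (orange) libraries, with the median of all lncRNA peaks of each list at the right (diamonds). In Malat1 and in the Neat1 start region the H/R points lie below the control points, as the list medians do (8.68 to 15.5 against 20.9 to 34.2).

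Kcnq1ot1, which is listed among the mRNAs here under the transcript uc012fxx.1, had peaks in 3 of the 6 mRNA lists. Near the start of the RNA, control A held a peak of 1468 bases (fold enrichment 16.21, p score 51.51) and H/R C one of 957 bases (9.39, 106.2), which overlapped within mm10 chr7:143294781-143296547 on the minus strand. H/R A held neither. It held instead a peak of 14777 bases (mm10 chr7:143217387-143232163, fold enrichment 12.63, p score 3100) and one of 4923 bases (mm10 chr7:143234591-143239513, fold enrichment 3.57, p score 285.98), at 57.0 to 79.2 kb from the start. The former was the longest of all mRNA peaks in H/R A. The covered bases were 1468, 0 and 0 in the control lists and 19700, 0 and 957 in the H/R lists, which overlapped, and they rested on H/R A.

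The start and the far stretch of Kcnq1ot1 differed in sequence. The start region had 54.1% GC and 7.92 DRACH sites per kb, and the far regions had 36.8% and 36.5% GC and 34.2 and 35.3 sites per kb, against 24.0 per kb in the rest of the RNA and 20.4 over all lncRNA regions. Marked repeats took 82.0% and 53.1% of the far regions, more than in 96.9% and 93.3% of lncRNA regions, and 15.8% of the start region. Multiply mapped reads had been removed by the authors, and the part of repeats in these peaks was not tested. Both kinds of stretch are shown by their densest 200 bases, the start at mm10 chr7:143295393-143295592 with 4 DRACH sites and the far stretch at mm10 chr7:143227887-143228086 with 16.
Kcnq1ot1 start: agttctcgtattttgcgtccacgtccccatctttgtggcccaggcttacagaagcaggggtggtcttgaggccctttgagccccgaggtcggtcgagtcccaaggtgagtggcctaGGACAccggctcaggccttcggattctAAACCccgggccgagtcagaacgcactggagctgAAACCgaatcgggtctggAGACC
Kcnq1ot1 far: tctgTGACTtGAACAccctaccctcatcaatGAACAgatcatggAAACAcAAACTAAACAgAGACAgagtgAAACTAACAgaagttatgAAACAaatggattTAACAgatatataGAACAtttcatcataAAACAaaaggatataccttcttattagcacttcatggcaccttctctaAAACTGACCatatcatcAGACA

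Gas5 (ENSMUSG00000053332, mm10 chr1:161034422-161038539, plus strand) had no peak in any of the 18 lists, and no peak of another name fell within the gene. Of 17 Snhg genes on a list of 70 other well known lncRNAs, 4 had an lncRNA peak, beside 17 of the 70 over the whole list. The 4 were Snhg6, Snhg10, Snhg12 and Snhg14, each in 1 list. Snhg11 had 1 peak, in an mRNA list. The lists do not separate an RNA that was not marked from one that was too scarce to be called.

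Over the 70 other lncRNAs, 17 had a peak in at least 1 lncRNA list and 53 had none. The lists named 8, 5 and 3 of them in the control lists and 11, 8 and 13 in the H/R lists. In all 6 lists were Peg13, an imprinted RNA of the brain, Fendrr, which in the mouse is needed for heart and body wall development, and 1810026B05Rik. None of the 70 had a peak in the 3 lists of one group and in no list of the other, which Dleu2 had for control. Of the 3479 gene names with an lncRNA peak, 0.172% had that pattern for control and 6.38% for H/R. With 17 called genes, a count of none thus says little. Peg13 had 1 peak in each list, with a fold enrichment of 12.42, 18.85 and 18.96 in the control lists and 15.78, 14.03 and 12.66 in the H/R lists. On this raw scale its groups overlapped, whereas those of Malat1 did not, as for 47.6% (295) of the 620 regions called in all 6 lists. Over the list median the Malat1 groups overlapped as well. The list medians were 20.9, 34.2 and 29.3 in the control lists and 8.68, 15.5 and 9.38 in the H/R lists. Peg13 lay below the median in every control list and in H/R B, and above it in H/R A and H/R C. Relative to the medians, every H/R value of Peg13 stood above every control value. That scaling raised the median difference of the 620 regions to 0.54, and the share of regions with this order was not counted. The 5 with the most peaks were Fendrr with 12, Airn, the imprinted antisense RNA of Igf2r, with 9, and 1810026B05Rik, 2700099C18Rik and Peg13 with 6 each.

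By covered bases over the 6 lists, on a log2 scale with 1 base added, the lncRNA genes closest to Malat1 were Gm14288 and Peg13 (Euclidean distances 1.36 and 1.57), and those closest to Dleu2 were Piga and Gm5537 (0.694 and 1.29). Piga peaks covered 1089 bases in each control list, and the H/R lists held none. The nearest to Neat1 were H2-Q4 at 4.12 and Gm6254 at 4.51, both of which also lacked a peak in H/R B. Meg3 was nearest to Gm21685 and Zeb2 (1.66 and 1.86), likewise called in control A, H/R A and H/R C only. These distances describe which lists called a gene and how long its peaks were.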

How the data were processed

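MeRIP-seq libraries of C17.2 NSCs were compared as the 18 peak lists deposited for 3 control and 3 H/R libraries. According to the methods and to the processing notes of the submitters, adapters were removed with cutadapt 1.9.3 and reads mapped to mm10 by HISAT2 2.0.4. Peaks were called by the authors with MACS (version not given in the sources used here) for each immunoprecipitate against its input, without pooling, and the parts on exons were kept. The deposited fold enrichment is a ratio to local background, the deposited p score is 10 times -log10 p, and the false discovery rate was deposited in percent. The letters A to C were not tied to replicate numbers.

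Rows repeated per associated gene were reduced to distinct peaks. Peaks of the 6 lists sharing at least 1 base were merged into regions. Control and H/R values were tested with exact permutations, two-sided, 3 against 3 (smallest p 0.1). Counting and merging were tested on simulated data. Motifs and positions came from RefSeq GRCm38.p6 and GENCODE vM21, the build of the lists, and no peak ran past a chromosome end.

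The genes, lists and rules for named genes were chosen with earlier results of these data known. Named beyond the 6 genes were the 2 lncRNA genes closest to each called member and, of 70 other lncRNAs, those in all 6 lists or in 1 group only and the 5 with most peaks. Python 3.11.15, numpy 2.4.6 and pandas 2.3.3 were used.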

Additional observations from a re-analysis of the deposited data

Results flagged for a closer look

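The Kcnq1ot1 peak of 14777 bases in the mRNA list of H/R A was a signal outside the lncRNA lists. It was the longest peak of that list, with a fold enrichment of 12.63, and no control list held a peak in that stretch. H/R B and H/R C held none there either, so it rests on 1 library.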

How the results depend on the processing

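No paired analysis was possible because the lists carry letters and not the replicate numbers of the labels. The Dleu2 differences kept their direction under every alternative tried, and so did those of Neat1 except that its start region was called in equal shares of the lists without H/R B. The Malat1 fold enrichment kept its direction except over the list median, where its log2 difference turned to 0.031. That scaling moved all 620 regions alike, to a median of 0.54, and left Malat1 lower than all but 13.1% of them. For Meg3, equal list length, a fold enrichment of at least 10 and a p score of at least 100 each turned the difference in peaks from 0.333 to -0.333 and in covered bases from 582 to -709. Each also took the Meg3 exon 5 region from 0 to -33.3 percentage points of lists, H/R minus control, and the upstream region from 33.3 to 0. A fold enrichment of at least 10 took the Neat1 start region from -33.3 to -100 percentage points and the Neat1 difference from -2589 to -4943 bases and from -1 to -1.67 peaks, and a reciprocal overlap of at least 50% took the middle region from -66.7 to -33.3. The fold enrichment cutoff of 10 lies above the list median in H/R A and H/R C and below it in every other list. Counting mRNA lists too, Kcnq1ot1 differed by 0.667 peaks.

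Leaving out 1 library at a time, Malat1 covered bases differed by -109.7 to 29.3 (above 0 without H/R C), its peaks by 0 and its log2 fold enrichment by -1.58 to -1.12. Neat1 differed by -3270 to -1412 bases (smallest without H/R B) and -1.33 to -0.667 peaks, its start region by -50 to 0 percentage points and its middle region by -100 to -50. Dleu2 differed by -886 to -809.5 bases, -1 peak and -100 percentage points. Meg3 differed by -560 (without H/R C) to 1291 bases and 0.167 to 0.667 peaks, its exon 5 region by -33.3 to 33.3 percentage points and its upstream region by 0 to 50. No p of any alternative could pass 0.05 with 3 lists a group. The lists give no read numbers, and those of the libraries were not used here, so what depth limits was not tested.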
